A study of Mus musculus with 90 samples.

Results

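Brown adipose tissue (BAT) of mice that lacked fibroblast growth factor 21 but kept uncoupling protein 1 was compared with BAT of wild-type mice. The comparison was chosen by label: the 5 BAT libraries titled as FGF21 KO and the 5 titled as wild type (WT), 10 of the 90 libraries in the series. The mice were male and the knockouts homozygous. All grew up at 30 °C, entered a climate chamber when 10 to 12 weeks old, spent 12 days there at 18 °C and 3 more weeks at 5 °C, and had no food for the last 2 to 3 h. Both groups therefore carried intact Ucp1 and both were adapted to cold. The other BAT libraries came from mice lacking UCP1 (UCP1 KO, 6 libraries) or both proteins (dKO, 6 libraries) that had gone through the same temperatures, and they are used here only where they bear on loss of FGF21. The labels give neither the strain nor the structure of the knockout alleles, and they do not say whether WT and knockout mice were littermates or which libraries share a mouse, so p-values measure only how far the labelled libraries differ among themselves, and genotype and colony of origin cannot be told apart. Replicate numbers below only name libraries.

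FGF21 is a hormone of the endocrine branch of the FGF family. It signals through an FGF receptor, mainly FGFR1 in fat, together with the co-receptor beta-Klotho, and activates the ERK kinase cascade, whose target genes include its own inhibitors of the Sprouty, Spred and dual-specificity phosphatase families. Brown fat burns fatty acids and glucose to make heat through UCP1, under control of noradrenaline and cyclic AMP, and it can itself make FGF21 in the cold. The comparison asks what the tissue looks like at the RNA level when that hormone is missing and UCP1 is present.

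The promoters of the targeted gene, of its neighbour Fut1 and of Adcy3 are shown because these genes carry the main results. Each sequence runs 5′ to 3′ from 250 bases before to 50 bases after a start listed for the gene, in RefSeq's annotation of GRCm38.p6. Fgf21 lies at chr7:45615441-45615740 on the minus strand, Fut1 at chr7:45617356-45617655 on the plus strand and Adcy3 at chr12:4133147-4133446 on the plus strand (the more upstream of 2 listed starts). Adcy3 itself is annotated from 4133116, so its window lies inside the gene, and sequence before that position was not searched. Capitals mark matches, on either strand, to the core of the cAMP response element (TGACG) or of the amino acid response element (TGATGNAA). The Fgf21 window holds 1 of each, both read on the opposite strand and not overlapping. The windows of Fut1, Adcy3 and another called gene, Mob1b, hold 0 of either. Over 32851 promoters of this length, 20.8% held the first motif and 3.97% the second.
Fgf21 promoter: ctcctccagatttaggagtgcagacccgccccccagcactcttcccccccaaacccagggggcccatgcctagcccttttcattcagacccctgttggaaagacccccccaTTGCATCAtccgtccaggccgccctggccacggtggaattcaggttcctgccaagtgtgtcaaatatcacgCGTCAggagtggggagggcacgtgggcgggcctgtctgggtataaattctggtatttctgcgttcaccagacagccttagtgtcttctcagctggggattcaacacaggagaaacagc
Fut1 promoter: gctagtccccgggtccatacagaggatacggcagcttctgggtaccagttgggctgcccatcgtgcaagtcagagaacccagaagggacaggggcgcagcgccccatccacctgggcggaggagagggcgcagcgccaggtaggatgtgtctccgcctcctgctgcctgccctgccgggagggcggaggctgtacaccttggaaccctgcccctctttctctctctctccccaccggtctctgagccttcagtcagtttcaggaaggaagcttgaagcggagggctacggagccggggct
Adcy3 promoter: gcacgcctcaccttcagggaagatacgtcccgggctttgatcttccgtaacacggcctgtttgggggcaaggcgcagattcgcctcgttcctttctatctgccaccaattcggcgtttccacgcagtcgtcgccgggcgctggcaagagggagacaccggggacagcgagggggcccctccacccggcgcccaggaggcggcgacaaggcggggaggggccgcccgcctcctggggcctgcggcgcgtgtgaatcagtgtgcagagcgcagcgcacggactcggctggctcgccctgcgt

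Depth ran from 35.2 to 53.0 M counts per library, of which the top 10 genes held 27.3% to 30.7%. Of 10 brown adipocyte markers, all had counts, and their summed level ran from 17900 to 22200 CPM in WT and from 22300 to 24200 CPM in FGF21 KO (CPM, counts per M counts of a library whose size was scaled with TMM, where M is mega). Ucp1 alone averaged 8524 CPM of this sum in WT and 11200 CPM in FGF21 KO. The median log2 fold change of the 10 markers was 0.07. Skeletal muscle RNA was uneven among the libraries of both genotypes. The mean log2 CPM of 15 muscle fibre markers was 7.43 in WT replicate 2, 10.75 in WT replicate 5, 8.23 in FGF21 KO replicate 1 and 9.55 in FGF21 KO replicate 4, and 2.65 to 5.92 in the other 6. The summed level of those markers ran from 551 to 35000 CPM in WT (median 1390) and from 218 to 14900 CPM in FGF21 KO (median 318). In whole tissue, fewer cells of a type and less RNA per cell cannot be told apart.

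Fgf21 RNA was scarce in cold-adapted WT brown fat and scarcer in the knockout. The WT libraries held 67, 28, 8, 61 and 39 Fgf21 counts, and the FGF21 KO libraries 2, 1, 0, 13 and 1. Replicate 4 of the knockout, with 13 counts, lay above the lowest WT library, so the groups overlapped in that library alone. Scaled for depth, the knockout held 0.0975 of the WT amount (exact 95% interval 0.0557 to 0.16, counting error only), with group means of 0.101 ± 0.169 CPM against 1.01 ± 0.621 CPM (mean ± SD, n = 5 each). The log2 fold change was -3.34 (SE 0.71) and missed the threshold over all genes (edgeR quasi-likelihood test, adjusted p = 0.172). Without knockout replicate 4 it was -5.06 (adjusted p = 0.0386). A row of counts per gene does not show which exons remained, so this checks the labels only in part. In BAT of UCP1 KO mice the same gene stood at 30.2 ± 10.4 CPM (n = 6) and in dKO at 0.0071 ± 0.0114 CPM (n = 6).

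Ucp1 RNA was not lost. It stood at 6463, 8737, 9109, 10130 and 8181 CPM in WT and at 11470, 11590, 11330, 11000 and 10610 CPM in FGF21 KO. Every knockout library lay above every WT library. The log2 fold change was 0.39 (SE 0.12, 95% interval 0.15 to 0.64) and missed the threshold (adjusted p = 0.333, edgeR).

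**Figure D1:**
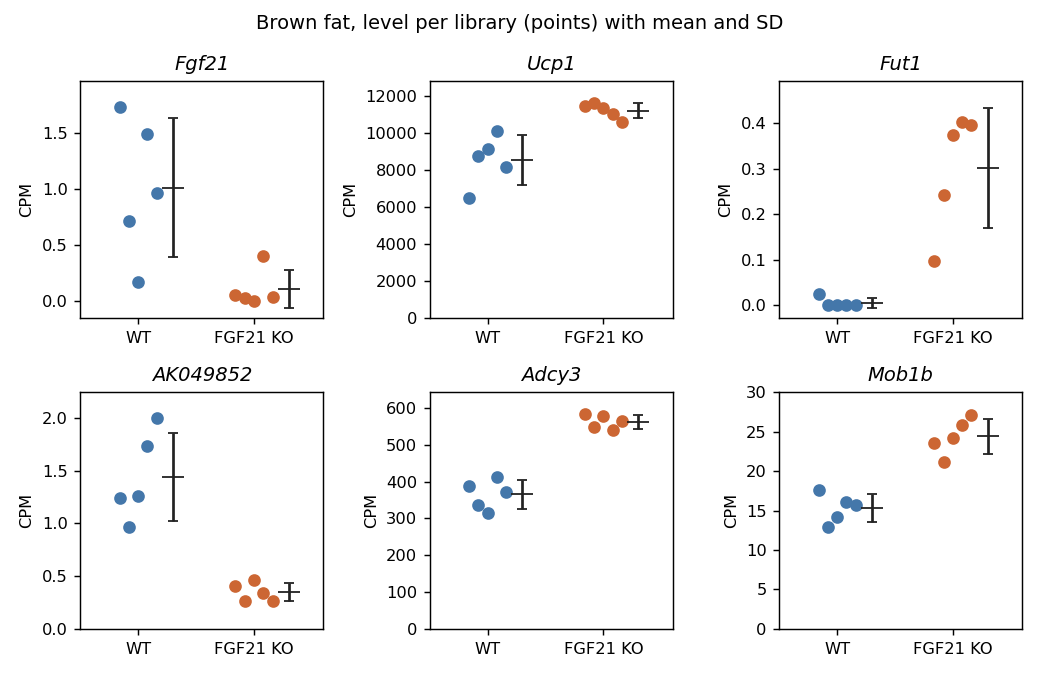
Level in CPM per library (points) of Fgf21, Ucp1 and the 4 genes past the test, in WT and FGF21 KO brown fat (5 libraries each), with mean and SD beside them on linear axes that each have their own scale. Fgf21 overlaps between groups in knockout replicate 4 only, and the other 5 genes do not overlap.

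Loss of FGF21 alone left a short list. Of 16032 genes tested, 4 passed the threshold (0.025%; edgeR quasi-likelihood test, Benjamini-Hochberg adjusted p under 0.05), 3 higher in the knockout (0.0187%) and 1 lower (0.00624%). The 4 were AK049852, Fut1, Adcy3 and Mob1b. Without the BAT libraries high for muscle RNA, left out in all genotypes of the model, 1 passed. That fit kept 3 WT and 3 FGF21 KO libraries. The count was 7 without WT replicate 1, 1 without WT replicate 2, 1 without WT replicate 3, 14 without FGF21 KO replicate 1 and 2 without FGF21 KO replicate 2, 3 or 5. A second tool, DESeq2, called 35 of the same genes (0.218%), 25 higher (0.156%) and 10 lower (0.0624%). It shared 3 of edgeR's 4 genes and gave no adjusted p for Fut1. Below, called without a tool means edgeR.

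How far the small number reflects the number of libraries was not tested. The intervals below are for single genes and are not adjusted for the number of genes tested. That of Ucp1, 0.15 to 0.64, lay above 0 although Ucp1 missed the threshold. The 95% interval of a log2 fold change had a median half-width of 0.24 over all genes tested and of 0.15 over the 8422 genes above 10 CPM in WT. Among those 8422, 42 had an estimated change of more than 1 on the log2 scale in either direction. At an unadjusted p under 0.05 stood 1514 genes (9.44%), 808 higher (5.04%) and 706 lower (4.40%). The 5 libraries of each group did not overlap in 219 genes (1.37%), 126 higher (0.786%) and 93 lower (0.58%). The median log2 fold change over all genes tested was -0.009.

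**Figure D2:**
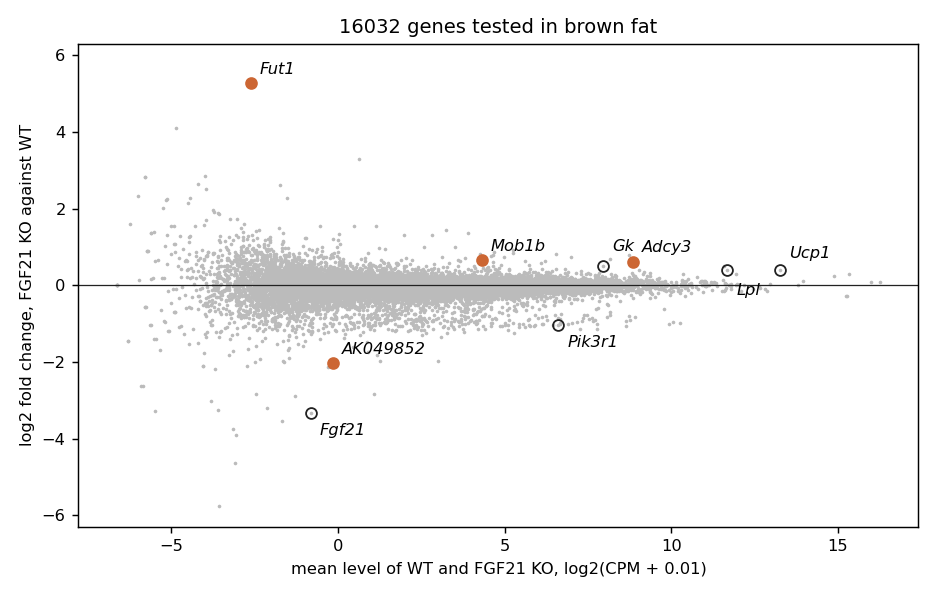
Log2 fold change of FGF21 KO against WT for each of the 16032 genes tested, against its mean level in both groups as log2(CPM + 0.01). Filled points are the 4 genes past the test, open circles are named genes that missed it, and most other genes lie close to 0 at high levels and scatter widely at low ones.

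Adcy3, adenylyl cyclase 3, which makes the cyclic AMP through which noradrenaline activates brown fat, rose in FGF21 KO. It stood at 389, 336.5, 314, 413 and 373 CPM in WT and at 583, 548, 577, 539 and 566 CPM in the knockout. The lowest knockout library was above the highest WT library, and the groups had means of 365 ± 39.9 and 562 ± 18.6 CPM (n = 5 each). The log2 fold change was 0.62 (SE 0.11, 95% interval 0.40 to 0.85, adjusted p = 0.0432, edgeR). The estimate stayed between 0.57 and 0.67 in 17 alternatives, but the call was lost in 9 of them: with a muscle covariate (adjusted p = 0.0808), without the muscle-high libraries (0.382), and without WT replicate 2, 3 or 5 or FGF21 KO replicate 2, 3, 4 or 5 (0.0655 to 0.155). With UCP1 missing, the level was higher in both groups, 647 ± 97.2 CPM in UCP1 KO and 776 ± 106 CPM in dKO (n = 6 each), and the difference between those groups was 0.26 (SE 0.10, adjusted p = 0.182).

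Mob1b, which codes for an adaptor of the LATS kinases in the Hippo pathway, also rose. Its level was 17.6, 12.9, 14.2, 16.1 and 15.8 CPM in WT and 23.5, 21.2, 24.2, 25.9 and 27.1 CPM in FGF21 KO. The groups did not overlap, and the log2 fold change was 0.67 (SE 0.12, adjusted p = 0.0432, edgeR). It stayed between 0.60 and 0.72 in 17 alternatives, and the call was lost in 10: with a muscle covariate (adjusted p = 0.0904), without the muscle-high libraries (0.536), and without WT replicate 2, 3, 4 or 5 or FGF21 KO replicate 2, 3, 4 or 5 (0.0519 to 0.155). In dKO against UCP1 KO it was 0.37 (SE 0.11, adjusted p = 0.0752), with means of 23.4 ± 4.47 and 18.0 ± 1.89 CPM.

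AK049852, a transcript that the reference tables used here do not annotate, was the only gene of the 4 to fall. Its level was 1.24, 0.962, 1.26, 1.73 and 2.00 CPM in WT and 0.410, 0.267, 0.468, 0.340 and 0.264 CPM in FGF21 KO. The highest knockout library stood below the lowest WT library. The log2 fold change was -2.03 (SE 0.27, adjusted p = 0.00215, edgeR). It fell as well in dKO against UCP1 KO, 2 groups that share no library with the first pair, by 1.28 on the log2 scale (SE 0.23, adjusted p = 0.00678), from 1.11 ± 0.416 to 0.456 ± 0.0483 CPM. Its log2 fold change in FGF21 KO against WT was -1.22 in inguinal fat (adjusted p = 1), -0.36 in muscle (adjusted p = 0.674) and -0.31 in hypothalamus (adjusted p = 0.213), and none of these passed the edgeR test.

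Fut1, a fucosyltransferase that builds the H antigen of glycoproteins, was near absent in WT and low in the knockout. The WT libraries held 1, 0, 0, 0 and 0 counts and the FGF21 KO libraries 4, 10, 12, 13 and 12. The ratio of the summed counts, scaled for depth, was 59.4 (exact 95% interval 10.2 to 2390, counting error only), and the fitted log2 fold change of 5.29 (SE 0.79, adjusted p = 0.00873, edgeR) depends on how zero counts are handled. The call was lost without WT replicate 2 (adjusted p = 0.0505), WT replicate 3 (0.0614) or the muscle-high libraries (0.359). The other 2 BAT groups both held Fut1 RNA, with 138 counts in UCP1 KO, whose Fgf21 is intact, and 108 in dKO. Their ratio, dKO to UCP1 KO, was 0.928 (exact 95% interval 0.715 to 1.20), while UCP1 KO to WT gave 86.7 (15.3 to 3450), a comparison that shares its WT libraries with the first. Of the 4 groups WT alone was near 0. The difference between the effects of FGF21 loss with and without UCP1 was -5.48 (SE 0.90) with an adjusted p of 0.0728 (edgeR).

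Fut1 is the next gene to Fgf21 on chromosome 7 among those tested. Fgf21 runs from 45613890 to 45615490 and Fut1 from 45617606 to 45621059 (RefSeq, GRCm38), with 2116 bases between their starts, and the genes face away from each other. Within 10 Mb of Fgf21, 1 of 144 tested genes was called, Fut1 itself (0.694%), against 3 of 15887 elsewhere (0.0189%). At an unadjusted p under 0.05 stood 16.7% of the genes in that window, 20 of 24 of them lower, against 9.37% elsewhere. Whether the knockout allele, DNA of another strain carried along with it or the hormone itself moves these neighbours was not tested.

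A pair of neighbours, chosen after their values were seen, passed the test in other tissues of the same comparison. Rasip1, an endothelial regulator of small GTPases, stood at 19.7 to 33.4 CPM in WT BAT (median 27.6) and at 20.01 to 22.4 CPM in FGF21 KO BAT (median 20.5), overlapping, with a log2 fold change of -0.37 (adjusted p = 0.373, edgeR). It fell in muscle by 0.58 (adjusted p = 0.0124), in hypothalamus by 0.81 (adjusted p = 0.0126) and in BAT of dKO against UCP1 KO by 0.47 (adjusted p = 0.0465). Mamstr, a coactivator of MEF2 transcription factors, was at -0.90 in BAT (adjusted p = 0.418) and fell in muscle by 0.78 (adjusted p = 0.0315). In BAT its highest level, 8.30 CPM, was in WT replicate 5, the library with the most muscle RNA, and the part of that RNA in the BAT value was not tested. In these other tissues, FGF21 KO against WT gave 1 call of 16751 genes in inguinal fat (0.00597%), 3 of 15120 in muscle (0.0198%) and 1 of 18020 in hypothalamus (0.00555%). The call in inguinal fat was Fgf21 itself, the targeted gene (-5.88, adjusted p = 0.000331, edgeR), and that in hypothalamus was Rasip1.

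**Figure D3:**
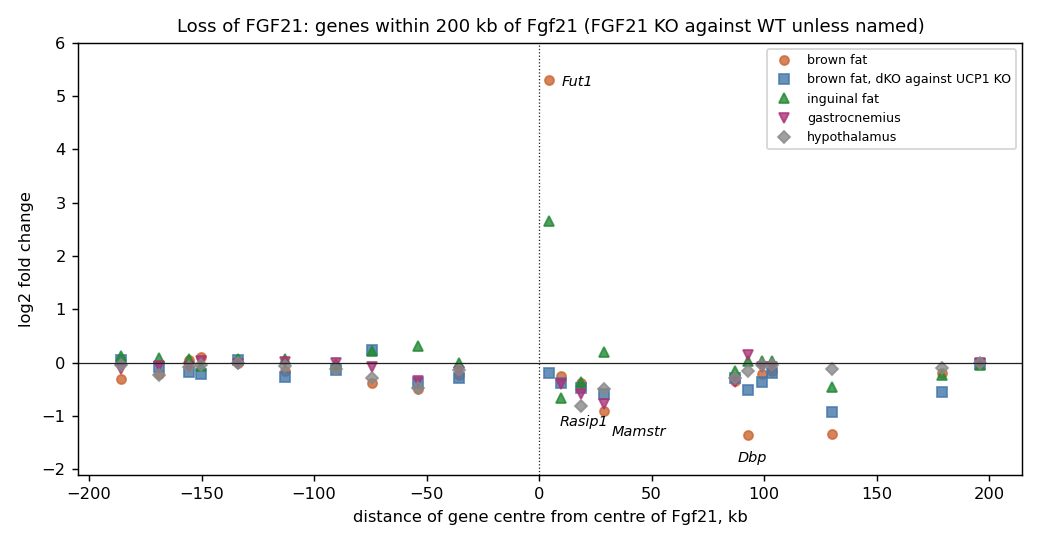
Log2 fold change of the tested genes within 200 kb of Fgf21 against the distance of their centres from its centre, for FGF21 KO against WT in brown fat, inguinal fat, gastrocnemius muscle and hypothalamus, and for dKO against UCP1 KO in brown fat. Fut1 stands at 5.29 in brown fat and 2.65 in inguinal fat, and at -0.18 in dKO against UCP1 KO. The inguinal fat value did not pass the test and rests on low levels, 0.0372 ± 0.0356 CPM in WT and 0.248 ± 0.144 CPM in FGF21 KO (mean ± SD).

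The receptors for the missing hormone were present and did not pass the test. Fgfr1 stood at 79.9 ± 3.56 CPM in WT and 71.0 ± 6.47 CPM in FGF21 KO, a log2 fold change of -0.17 (95% interval -0.30 to -0.04, adjusted p = 0.40, edgeR). Klb, the beta-Klotho co-receptor, stood at 46.1 ± 5.90 and 50.4 ± 3.24 CPM, a change of 0.13 (-0.13 to 0.39). For Fgfr2 and Fgfr3 the changes were 0.10 and 0.15, at 4.70 to 8.31 CPM. Fgfr4 and Kl, the Klotho co-receptor that serves another hormone of the family, fell below the filter on low counts, with means under 0.3 CPM in both groups. Of 10 other genes of the FGF family in the list, 8 were tested and 0 called. The most abundant of them, Fgf1, stood at 43.1 ± 9.80 and 35.2 ± 4.18 CPM (log2 fold change -0.29, adjusted p = 0.542, edgeR).

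None of the 13 ERK feedback and target genes was called in FGF21 KO against WT, and their median log2 fold change was -0.22, beside -0.01 over all genes tested. At an unadjusted p under 0.05 stood 2 of them (15.4%, beside 9.44% of all genes tested). Dusp4, a phosphatase that switches ERK off in the nucleus, stood at 45.5, 71.8, 24.8, 50.3 and 23.02 CPM in WT and at 25.4, 15.3, 31.3, 12.8 and 24.6 CPM in FGF21 KO. The groups overlapped, since WT replicates 3 and 5 were as low as the knockout, and the log2 fold change was -0.98 (SE 0.28, adjusted p = 0.333, edgeR). Spred1, which blocks activation of RAF, was at -0.24 (adjusted p = 0.421).

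Several members of this list were set apart by 1 WT library. In WT replicate 2, Dusp6 stood at 109 CPM, Spry4 at 34.0 CPM and the immediate early gene Egr1 at 41.9 CPM, and the other 4 WT libraries ran from 18.9 to 44.0, 9.61 to 14.9 and 2.97 to 13.2 CPM. Without it the log2 fold change of Dusp6 went from -0.39 to 0.28 and that of Spry4 from -0.17 to 0.29, neither past the test. In the pair of groups without UCP1, where Fgf21 RNA was high in the control, 5 of the 13 fell in dKO against UCP1 KO (0.967% of all genes were called lower there). They were Dusp4 (-1.56, adjusted p = 0.00527), Etv5 (-1.10), Spry4 (-1.01), Spred1 (-0.55) and Spred2 (-0.41). The interaction for Dusp4, the effect without UCP1 minus the effect with it, was -0.58 (SE 0.38). It was -0.97 (SE 0.28) for Etv5, -0.84 (SE 0.33) for Spry4, -0.30 (SE 0.13) for Spred1 and -0.36 (SE 0.10) for Spred2. None of the 5 passed the edgeR test (adjusted p 0.321 to 0.814), so the effects were not shown to differ.

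**Figure D4:**
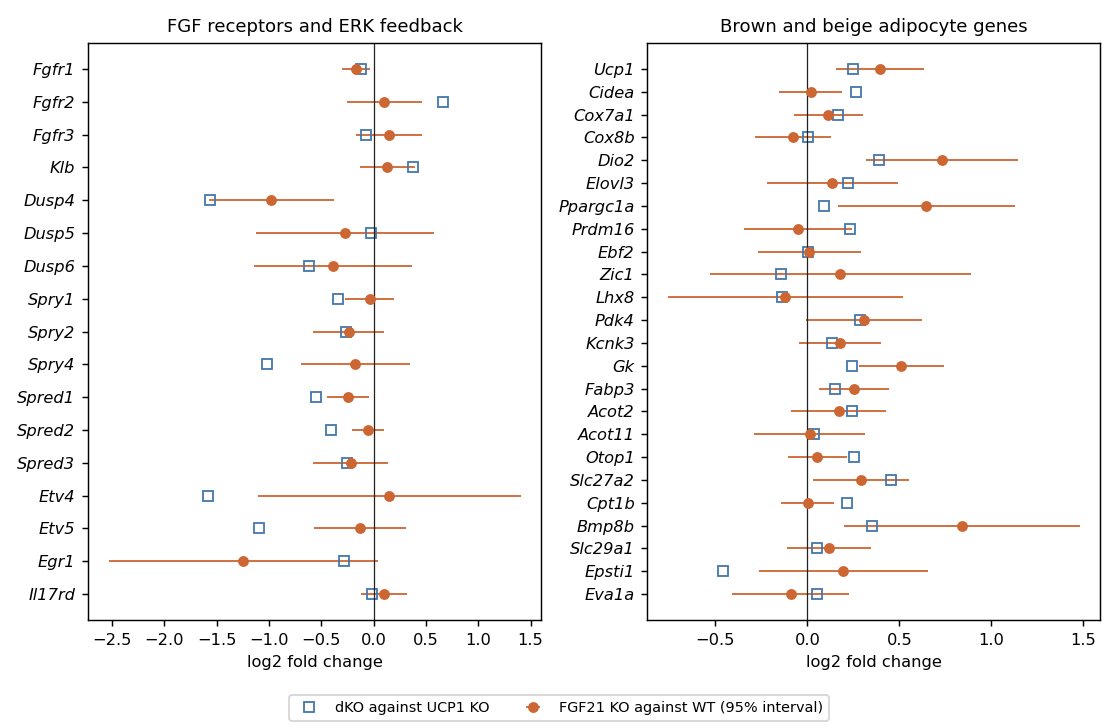
Log2 fold change of FGF21 KO against WT with its 95% interval (filled circles) for 17 receptor and ERK feedback genes and 24 brown and beige adipocyte genes, with the change in dKO against UCP1 KO as open squares (no interval drawn). None of the filled circles belongs to a gene past the test, and the widest intervals are those of Egr1 and Etv4.

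The heat programme of brown fat was present in FGF21 KO, and none of 24 brown and beige adipocyte genes was called by edgeR, while DESeq2 called Gk (adjusted p = 0.0089) and Dio2 (0.0459), both higher. Their median log2 fold change was 0.15. At an unadjusted p under 0.05 stood 7 of 24 (29.2%, beside 9.44% of all genes tested), all higher in the knockout (5.04% of all genes): Ucp1, Dio2, Ppargc1a, Gk, Fabp3, Slc27a2 and Bmp8b. Ucp1 was the only member of the 24 whose groups did not overlap (1.37% of all genes).

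Dio2, the deiodinase that makes active thyroid hormone inside the brown adipocyte, stood at 101, 147, 90.9, 86.6 and 55.2 CPM in WT and at 141, 112, 204, 148 and 194 CPM in FGF21 KO. The groups overlapped through WT replicate 2, and the log2 fold change was 0.73 (SE 0.20, adjusted p = 0.289, edgeR). Gk, glycerol kinase, which returns glycerol to triglyceride, stood at 265.5, 195, 220, 169 and 173 CPM in WT and at 245, 293.5, 295, 321 and 302 CPM in the knockout, overlapping in 1 library of each, with a log2 fold change of 0.51 (adjusted p = 0.172). Ppargc1a, the coactivator that drives mitochondrial biogenesis, went from 57.9 ± 15.6 to 90.6 ± 32.5 CPM (0.65, adjusted p = 0.378), and Bmp8b, a secreted factor of brown fat, from 27.6 ± 16.2 to 49.4 ± 15.0 CPM (0.84, adjusted p = 0.387). Cidea (0.02), Cpt1b (0.00), Ebf2 (0.01) and Prdm16 (-0.05), which mark or specify brown adipocytes, lay close to 0. Their intervals reached down to -0.35 for Prdm16 and up to 0.29 for Ebf2.

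Among 22 genes of adrenergic and cAMP signalling, Adcy3 was the only call, and the median was 0.07. Adra1d and Adra1a, receptors of the alpha-1 class, were at -0.57 (adjusted p = 0.341) and 0.19 (adjusted p = 0.508). Of 14 PPAR, PGC-1 and ERR regulators edgeR called 0 and DESeq2 called 1, Med1 (adjusted p = 0.029). Med1, a Mediator subunit that binds nuclear receptors, stood at 36.8 to 39.4 CPM in WT and at 40.8 to 46.1 CPM in FGF21 KO, without overlap (log2 fold change 0.21, adjusted p = 0.186, edgeR).

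In the lists of lipid and glucose genes, edgeR called 0 and DESeq2 called Lpl (adjusted p = 0.0183). Lpl, lipoprotein lipase, which frees fatty acids from circulating triglyceride, stood at 3148, 2553, 2847, 2754 and 2864 CPM in WT and at 3693, 4014, 3291, 3801 and 3845 CPM in FGF21 KO. The groups did not overlap, and the log2 fold change of 0.40 (SE 0.09) had an adjusted p of 0.207 (edgeR). Gpam, which starts glycerolipid synthesis at the mitochondrion, ran from 377 to 424 CPM in WT and from 470.5 to 519 CPM in the knockout (0.31, adjusted p = 0.309). Slc27a1, a fatty acid transport protein, ran the other way, from 311 ± 27.7 to 224 ± 32.4 CPM without overlap (-0.48, adjusted p = 0.258).

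Srebf1, the transcription factor of fatty acid synthesis, was at -0.52 (adjusted p = 0.404), and Fasn, fatty acid synthase and among the most abundant messages, went from 43780 ± 3082 to 35880 ± 4312 CPM (-0.29, adjusted p = 0.855). The fitted SE of Fasn was 0.42 and rests on the spread within all 22 BAT libraries. The missed threshold therefore does not show that Fasn was unchanged between the 10 libraries compared. The 18 lipogenic genes had a median of -0.14. The 21 tested genes of the cholesterol list had a median of -0.04, and 0 were called. Pfkfb3, an activator of glycolysis, stood at 401 to 598 CPM in WT and at 541 to 758 CPM in FGF21 KO (0.36, adjusted p = 0.341), beside a median of 0.01 for 22 glucose genes.

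The mitochondrial programme lay close to 0. The 51 respiratory chain and ATP synthase genes had a median log2 fold change of 0.00 with quartiles of -0.04 and 0.04, and 0 reached an unadjusted p under 0.05. Leaving aside Atp5g1, at -0.75 with an interval of -2.39 to 0.89, they ran from -0.18 (Ndufs7) to 0.11 (Uqcrc2). The 20 fatty acid oxidation genes had a median of 0.01 and ran from -0.15 (Acads) to 0.15 (Etfa), and the 21 citric acid cycle genes had a median of -0.01. Cpt1b, which admits fatty acids to the mitochondrion in brown fat, stood at 1067 ± 69.8 CPM in WT and 1067 ± 45.1 CPM in FGF21 KO (95% interval of the log2 fold change -0.14 to 0.14).

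Of 21 genes of heat cycles proposed to work without UCP1, edgeR called 0, and DESeq2 called Gk, described above. The median was -0.12 with a lower quartile of -0.46, and the list holds muscle genes such as Sln (-1.74, 95% interval -5.90 to 2.41) and Ryr1 (-0.99, -4.41 to 2.44), whose wide intervals stand beside the uneven muscle RNA, the part of which was not tested. Ckb, the creatine kinase of brown adipocytes, stood at 55.0 ± 21.3 CPM in WT and 82.2 ± 11.5 CPM in FGF21 KO (0.58, adjusted p = 0.43, edgeR).

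**Figure D5:**
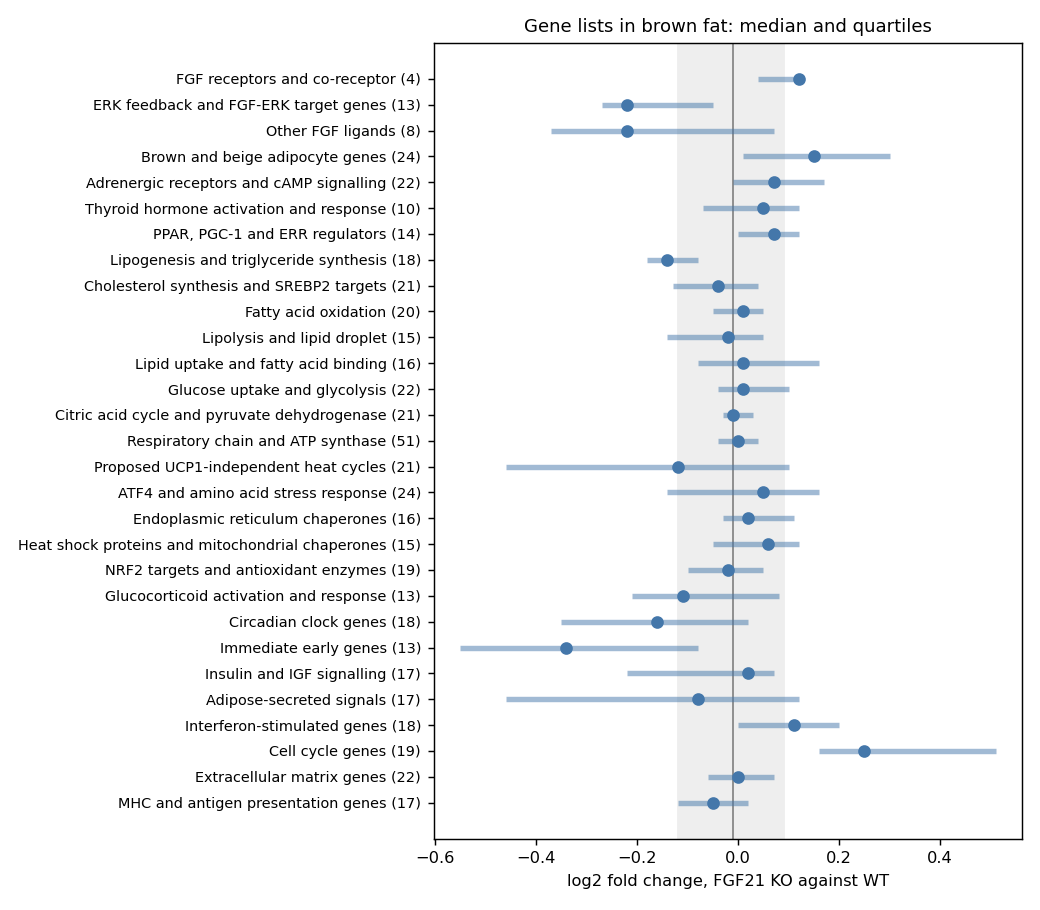
Median (points) and quartiles (bars) of the log2 fold change of FGF21 KO against WT in 29 pathway lists, with the number of tested genes in brackets; the grey band and line are the quartiles and median over all genes tested. Medians run from -0.34 for immediate early genes to 0.25 for cell cycle genes, and 18 of 29 lie within 0.1 of 0.

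Over all 41 lists, 29 of pathways and 12 of cell type markers, 627 distinct genes were named, of which 596 were tested, 26 fell below the filter and 5 had no row. Adcy3 was the only member that edgeR called, and DESeq2 also called Pik3r1, Gk, Lpl, Med1 and Dio2. At an unadjusted p under 0.05 stood 62 of the 596 (10.4%, beside 9.44% of all genes tested), and 11 did not overlap (1.85%, beside 1.37%). The lists were thus close to the background on both counts.

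Insulin signalling held the member closest to a call after Adcy3. Pik3r1, the main regulatory subunit of PI3-kinase, stood at 126, 153, 187, 100 and 91.1 CPM in WT and at 75.7, 74.4, 46.8, 46.1 and 77.1 CPM in FGF21 KO. Every knockout library was below every WT library, and the fitted difference was -1.04 on the log2 scale (SE 0.20, adjusted p = 0.0879, edgeR). DESeq2 called it lower (adjusted p = 0.000123), and edgeR did so without WT replicate 5 (-1.14, adjusted p = 0.0491). In UCP1 KO and dKO it was lower still, 38.4 ± 4.24 and 36.4 ± 7.56 CPM, with a difference of -0.08 (SE 0.18, adjusted p = 0.873) between them. The rest of the insulin list had a median near the background (0.02 over 17 genes).

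In stress pathways, 0 of 24 ATF4 targets and 0 of 16 endoplasmic reticulum chaperone genes were called. Slc3a2, the heavy chain of an amino acid exchanger, went from 94.7 ± 13.7 to 128 ± 23.9 CPM (0.44, adjusted p = 0.309, edgeR), and Xbp1, a transcription factor of the unfolded protein response, from 58.7 ± 6.44 to 42.1 ± 6.70 CPM without overlap (-0.48, adjusted p = 0.333). Hsd11b1, which regenerates active glucocorticoid, stood at 92.3 to 166 CPM in WT and at 55.0 to 88.0 CPM in FGF21 KO, also without overlap (-0.88, SE 0.34, adjusted p = 0.42). It fell in dKO against UCP1 KO by 1.38 (SE 0.32, adjusted p = 0.0346), and the interaction was -0.50 (SE 0.46, adjusted p = 0.902).

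Among 18 clock genes, 0 were called and 6 reached an unadjusted p under 0.05 (33.3%, beside 9.44% of all genes tested), 4 lower and 2 higher. Per3, a repressor of the clock, stood at 15.3, 34.7, 28.2, 11.8 and 15.4 CPM in WT and at 13.4, 13.2, 10.7, 12.7 and 11.8 CPM in FGF21 KO (-0.77, adjusted p = 0.309, edgeR). WT replicates 2 and 3 were high, and the other 3 WT libraries lay near the knockout values. Dbp, an output gene of the clock that lies within 200 kb of Fgf21, was at -1.36 (SE 0.43, adjusted p = 0.347), and Clock itself, at 67.8 ± 1.01 and 74.6 ± 3.65 CPM, was at 0.14 without overlap (adjusted p = 0.333). The labels give no hour of collection.

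Cell cycle genes had the highest median of the pathway lists, 0.25 over 19 genes, with 4 at an unadjusted p under 0.05 (21.1%, beside 9.44%), all higher, and 0 called. Bub1, a kinase of the spindle checkpoint, stood at 0.162 CPM in WT and 0.315 CPM in FGF21 KO on average (0.96, adjusted p = 0.344, edgeR), so the estimate rests on low counts. In dKO against UCP1 KO the median of the same list was -0.21. Immediate early genes had the lowest median, -0.34 over 13 genes with 1 at an unadjusted p under 0.05, and in WT replicate 2 Fos, a subunit of the AP-1 transcription factor, stood at 8.38 CPM beside 0.771 to 1.80 CPM in the other 4 WT libraries. The remaining pathway lists had 0 edgeR calls each and these medians, and the DESeq2 calls in them were Dio2 among thyroid hormone genes and Lpl among lipolysis and lipid uptake genes. Thyroid hormone genes were at 0.05, lipolysis genes at -0.02, lipid uptake genes at 0.01 and heat shock genes at 0.06. NRF2 targets were at -0.02, glucocorticoid genes at -0.11, adipose-secreted signals at -0.08, interferon-stimulated genes at 0.11, extracellular matrix genes at 0.00 and antigen presentation genes at -0.05.

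Markers of other cell types gave 0 calls in the 12 lists. The 19 macrophage markers had a median of 0.11 and summed to 200 to 269 CPM in WT and to 200 to 482 CPM in FGF21 KO. Itgax, an integrin of myeloid cells, stood at 0.279 to 0.708 CPM in WT and reached 1.80 and 3.16 CPM in knockout replicates 2 and 5 (1.21, adjusted p = 0.426, edgeR). Endothelial markers (0.04), lymphocyte markers (0.07) and fibroblast markers (-0.06) had medians near 0, while the 9 white adipocyte markers tested had a median of -0.47, with Cfd, adipsin, at 565 ± 248 and 301 ± 143 CPM (-0.91, adjusted p = 0.569). The white adipocyte list was mixed, with quartiles of -0.81 and 0.13. At an unadjusted p under 0.05 stood 2 of its members higher and 1 lower (33.3%, beside 9.44% of all genes tested). Mest, its member with the smallest p, was at 0.47 (adjusted p = 0.399, edgeR). Neutrophil and mast cell markers (-0.17), pericyte markers (-0.15), nerve markers (-0.19) and red blood cell markers (-0.18) had medians below 0. In the white adipocyte list Tcf21 was at 0, and in the epithelial list, of which 1 of 8 was tested, Krt5 was at 0. The skeletal muscle markers had a median of -0.92 with intervals more than 4 log2 units wide for each, such as -4.67 to 2.63 for Acta1.

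Without UCP1, the same loss of FGF21 was followed by more calls: 278 genes (1.73%) in dKO against UCP1 KO, 123 higher (0.767%) and 155 lower (0.967%). That count was 45 without the muscle-high libraries and 523 without UCP1 KO replicate 2, and it was 99 to 184 without UCP1 KO replicate 1, 3, 5 or 6 or dKO replicate 1, 2, 3, 5 or 6. The interaction test, which asks directly whether the effect differed with UCP1, called 0 genes (0%) with edgeR, 1168 (7.29%) at an unadjusted p under 0.05, and 23 with DESeq2. The difference in the number of calls, 4 against 278, compares groups of 5 with groups of 6 and was not itself tested. Of the 4 genes called with UCP1 intact, AK049852 was also called without it, in the same direction. The 5 ERK feedback genes that fell without UCP1 had estimates from -0.98 to -0.05 with it.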

How the data were processed

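Brown fat gave 22 stranded poly(A) libraries, read as 100 bp pairs per the labels' protocols. STAR, HTSeq and the mm10 build are named in the submitters' processing notes (no versions in the sources used here). What the authors deposited is 1 file of raw counts by gene for each library. Each file held 32765 rows; 66 names repeated after trimming were summed, 32697 gene rows were kept, and 24275 matched RefSeq. The 2 rows naming no gene held 0.0021% to 0.1226% of the counts, and at most 0.0072% in the 10 libraries compared. Over the 20 within-group pairs of the 10 libraries compared, chi-square per degree of freedom was 12.1 to 247, so none of these replicates was a copy of another.

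All 22 libraries entered 1 model in edgeR 4.0.16, run in R 4.3.3, with TMM, filterByExpr, robust quasi-likelihood F test, 1 mean per genotype, Benjamini-Hochberg over the 16032 genes tested (biological coefficient of variation 0.257, TMM factors 0.815 to 0.894 in the 10 libraries). Other tissues were fitted by themselves. Alternatives were DESeq2 1.42.0, RLE factors, library totals, no filter, a fit on only the 2 groups, a muscle covariate, libraries with a muscle marker mean over 7 left out, each library left out and windows of 5 and 20 Mb. The fits were tested on simulated data. Figures were drawn with matplotlib 3.10.9. Named genes were Fgf21, Ucp1, Nnt and Fgf12; the 12 largest calls each way, at least 1 CPM in the higher group and no overlap; the called member of each list with the smallest p, or else the member with the smallest p; all FGF receptor and ERK feedback genes; and up to 6 called genes each from the interaction (at least 1 CPM) and within 10 Mb of Fgf21. Fgf12 was below the filter (0.101 and 0.0938 CPM). The result of 1 gene that this rule names is not reported here. Other genes of the lists were named after their values were seen. The comparison and the lists were chosen with earlier results of these data known. Counting intervals and count ratios cover counting error only.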

Additional observations from a re-analysis of the deposited data

Results flagged for a closer look

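Among 132 groups of values checked, 17 had a library far from the others by Dixon's gap ratio, which chance gives in about 1 in 20 groups. Several of the deviating values come from the same libraries.

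WT replicate 2 was high for growth factor and immediate early genes, with Dusp5 at 1.19 CPM (0.128 to 0.32 in the other 4), Dusp6 at 109 CPM (18.9 to 44.0), Spry4 at 34.0 CPM (9.61 to 14.9), Egr1 at 41.9 CPM (2.97 to 13.2) and Fos at 8.38 CPM (0.771 to 1.80). It was also high for Slc4a1, a red cell transporter, at 0.987 CPM (0.0775 to 0.148).

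WT replicate 5, the library with the most muscle RNA, stood at 1360 CPM for Myl1 (80.1 to 176 in the others), 8.30 CPM for Mamstr (1.96 to 3.39), 0.665 CPM for Etv4 (0.0244 to 0.129) and 463 CPM for Acads (576 to 601). It also held 34.2 CPM of Nnt (2.74 to 3.96). FGF21 KO replicate 4 held 17.7 CPM of Nnt (4.45 to 6.98). Nnt, a gene of which C57BL/6J mice are known to lack a part, codes for a mitochondrial transhydrogenase, and the labels give no strain for either mouse. The group difference for Nnt was -0.24 on the log2 scale and 0.71 without the muscle-high BAT libraries of all genotypes, which include both.

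FGF21 KO replicate 4 was also the library with 0.402 CPM of Fgf21 (0 to 0.0483 in the other 4). For Fut1, WT replicate 1 with 0.0258 CPM was set apart by a single count, the others being at 0, and UCP1 KO replicate 5 was low at 0.133 CPM (0.439 to 0.540). Rasip1 stood at 22.4 CPM in FGF21 KO replicate 3 (20.01 to 20.5), and Slc3a2 at 118 CPM in WT replicate 4 (84.8 to 92.2).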

How the results depend on the processing

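No paired analysis was possible because the labels carry no replicate numbers. The count of 4 called genes was the same with RLE factors and with no filter. The fit on the 2 groups alone also gave a count of 4, but not the same 4 genes, since Fut1 was filtered out there. The count was 35 with DESeq2, 7 with library totals, 2 with a muscle covariate and 1 without the muscle-high libraries. It ran from 1 to 14 when each library was left out. The genes called higher numbered 25, 6, 1 and 0 under those 4 settings and 0 to 13 with a library left out; those called lower numbered 10 with DESeq2 and 1 to 2 with a library left out. Calls in dKO against UCP1 KO were 739 with DESeq2 and 45 without the muscle-high libraries, and 99 to 523 with a library left out, 99 without UCP1 KO replicate 3 and 523 without UCP1 KO replicate 2. Interaction calls were 23 with DESeq2, 1 with no filter and 0 to 4 with a library left out. Fgf21 passed with DESeq2 (-3.34, adjusted p = 0.0153) and ran from -5.06 to -3.05 with a library left out. Ucp1 ran from 0.31 to 0.46 and passed in none (adjusted p 0.117 to 0.677). AK049852 passed in all 17 alternatives (adjusted p 6.03e-07 to 0.0346), Adcy3 in 8 of 17, Mob1b in 7 of 17 and Fut1 in 12 of the 15 that gave a value (DESeq2 gave it no adjusted p, and the fit on the 2 groups alone filtered it out). The cause of these differences was not tested; the fits without libraries have fewer samples. Over the 59 named genes besides Fgf21 and Ucp1, 950 of 995 alternative values kept direction and side of the threshold, and no called value changed sign. Genes at few counts, such as Fut1 and Fgf21, are limited by depth.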

Other observations

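DESeq2, which called 35 genes in FGF21 KO against WT, named further genes that missed edgeR's threshold. The genes described here were chosen after their values were seen. Gmpr, guanosine monophosphate reductase, went from 308 ± 42.7 to 539 ± 69.3 CPM without overlap (log2 fold change 0.81, adjusted p = 0.00029 with DESeq2 and 0.0765 with edgeR). Nnmt, nicotinamide N-methyltransferase, went from 18.2 ± 5.08 to 33.3 ± 9.73 CPM (0.87, 0.0275 and 0.27). The lysosomal membrane proteins Lamp1 (0.20) and Scarb2 (0.25) were higher without overlap, at adjusted p = 0.0183 and 0.00452 with DESeq2 and 0.258 and 0.156 with edgeR. Ccnd1, cyclin D1, went from 23.5 ± 6.07 to 39.6 ± 6.03 CPM without overlap (0.75, adjusted p = 0.0421 with DESeq2 and 0.27 with edgeR).

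Of the 35, 24 did not overlap between groups, beside 1.37% of all genes tested. The 35 were chosen by p-value on the same libraries, so this is no separate evidence. In dKO against UCP1 KO, 30 had the same sign, and the share over all genes was not counted. There 4 passed the edgeR test with that sign (1.73% of all genes were called in either direction): AK049852, Fgf21 (the targeted gene), Tacr2 and Sult5a1. Tacr2, a tachykinin receptor, was at 0.96 with UCP1 intact and 0.73 without (adjusted p = 0.047), and Sult5a1, a sulfotransferase, at 0.83 and 0.97 (adjusted p = 0.0164).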
